A study of Homo sapiens with 12 samples.

Results

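The ID genes ID1, ID2, ID3 and ID4, the BMP-branch SMAD genes SMAD1, SMAD5 and SMAD9, the inhibitor genes SMAD6 and BAMBI and the ligand gene BMP4 are 10 of the 25733 genes in the expression table of a study of HCT116 cells. They were chosen by the FPKM values of ID1, which were higher after TGF-β in these libraries, and the question was whether its relatives and the SMAD1/5 branch were higher too. The TGF-β values of ID1 are therefore a description with no p given, and although ID1 stays in the counts over all genes, its own call there supports nothing. The NH4Cl differences of ID1 rest on the same libraries, control libraries included, so they too are given with no p. Its calls there stay in the counts of members and support nothing. Values are in FPKM, reads scaled by gene length and library size, which allows levels to be compared between genes.

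BMP ligands such as BMP4 bind receptor kinases that phosphorylate SMAD1, SMAD5 and SMAD9, and these join SMAD4 and switch on target genes. The ID genes are among the fastest of those targets, and they encode helix-loop-helix proteins without a DNA-binding part that hold bHLH transcription factors away from DNA. SMAD6 and BAMBI are induced by the same signal and damp it, and TGF-β, which acts mainly through SMAD2 and SMAD3, can also reach SMAD1 and SMAD5 in many cell types.

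The study asked how ammonia acts on TGF-β signalling in colon cancer, and RNA was sequenced from 12 libraries of HCT116, an established human colorectal carcinoma line, in 4 groups of 3. Control cells were untreated, and TGF-β cells had 200 pM TGF-β for 1 h. NH4Cl cells had 10 mM ammonium chloride for 24 h, and NH4Cl plus TGF-β cells had ammonium chloride for 23 h before TGF-β was present for 1 h. HCT116 is a single tumour line and is commonly described as carrying mutations in the receptor gene TGFBR2, which limits it as a model of a TGF-β response. The labels number the replicates but do not say whether these were separate cultures, so the spread between libraries may be technical, and p-values measure only that spread.

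Reads on genes ran from 15298508 to 16700597 in the control libraries and from 14830829 to 18191998 in the TGF-β libraries. They ran from 14931020 to 15880031 with NH4Cl and from 14807630 to 17620222 with NH4Cl plus TGF-β. Of the colon epithelial markers, 8 of 8 had a mean of at least 1 FPKM, led by KRT18 at 876 FPKM, with EPCAM at 254 FPKM. The summed FPKM of these markers was 2527, 2418 and 3328 in control replicates 1 to 3, 2509, 2436 and 3429 with TGF-β, 2285, 2311 and 2908 with NH4Cl, and 2497, 2379 and 3026 with the combination. Of the fibroblast markers 2 of 5 reached that mean (LUM at 7.79 FPKM, COL1A1 at 1.68 FPKM), of the endothelial markers 1 of 4 (VWF at 3.01 FPKM), and of the immune markers that were listed 0 of 2. The defining fibroblast genes COL1A2, COL3A1 and DCN and the endothelial genes PECAM1 and KDR were at or below 0.0348 FPKM, and the endothelial gene CDH5 was at 0.24 FPKM.

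Replicate 3 stood apart in every group. Mitochondrial genes took 4.5% to 5.12% of reads in its 4 libraries and 2.46% to 3.18% in the other 8. ID1 was higher in replicate 3 than in the mean of replicates 1 and 2 in 4 of 4 groups, by a mean of 0.82 on the log2(FPKM + 1) scale. ID3 (0.53), ID4 (0.16), BAMBI (0.33) and BMP4 (0.32) were also higher in 4 of 4 groups, and SMAD1 was lower in 4 of 4 (-0.19). Between replicates 1 and 2 of a group, read counts differed by a mean chi-square of 1.76 to 5.02 per gene. Between replicate 3 and either of them it was 25.4 to 36.3. What set replicate 3 apart was not tested. For this reason ratios are given within a replicate number, tests are given without and with the replicate number as a block, and calls are given also without replicate 3.

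Promoter windows from RefSeq on build GRCh38.p14, each covering 250 bases before a start site, were at hand for 10 of 10 genes (16 windows). They were searched on both strands for GGCGCC, a GC-rich motif known for SMAD1 and SMAD5, and for the SMAD element GTCT or its reverse complement AGAC, motifs that cannot overlap each other. GGCGCC was in 4 of the 16 windows, those of 3 genes (SMAD1, BAMBI and BMP4), against 16.4% of all 35116 windows. GTCT or AGAC was in 13 of the 16 windows, with at least 1 for 10 of 10 genes, against 77.5% of all windows, so its presence sets these genes little apart. Shown are ID1, which chose the set, ID4 and SMAD6, which differed with NH4Cl in opposite directions, and BAMBI, the shown gene with GGCGCC; capitals mark the motifs. They are ID1 at chr20:31605039-31605288, ID4 at chr6:19837120-19837369, SMAD6 at chr15:66701986-66702235 and, up to the first annotated exon, BAMBI at chr10:28677271-28677341, all on the + strand.
ID1: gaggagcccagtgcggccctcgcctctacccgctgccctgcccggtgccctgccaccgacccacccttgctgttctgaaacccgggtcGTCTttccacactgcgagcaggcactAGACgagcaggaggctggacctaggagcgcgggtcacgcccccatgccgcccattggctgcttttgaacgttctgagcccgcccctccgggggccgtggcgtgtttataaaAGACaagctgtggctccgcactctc
ID4: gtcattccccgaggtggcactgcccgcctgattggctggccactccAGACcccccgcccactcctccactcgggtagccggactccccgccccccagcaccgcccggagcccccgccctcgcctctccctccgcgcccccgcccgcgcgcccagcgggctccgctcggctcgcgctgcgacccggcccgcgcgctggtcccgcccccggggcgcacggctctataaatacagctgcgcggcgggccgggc
SMAD6: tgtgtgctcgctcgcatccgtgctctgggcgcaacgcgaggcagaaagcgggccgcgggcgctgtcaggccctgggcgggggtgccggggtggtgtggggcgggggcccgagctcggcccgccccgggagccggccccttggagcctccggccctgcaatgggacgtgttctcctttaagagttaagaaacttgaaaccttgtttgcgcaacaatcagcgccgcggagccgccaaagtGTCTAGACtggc
BAMBI: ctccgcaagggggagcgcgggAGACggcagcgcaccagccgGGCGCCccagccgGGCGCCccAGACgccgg
The ID1 window held GTCT 1 time and AGAC 2 times, and the ID4 window AGAC 1 time. In the SMAD6 window GTCT and AGAC stood side by side as GTCTAGAC, an arrangement noticed after the sequence was seen and found in 0.182% of all windows. The last 8 bases of the SMAD6 window lie in its annotated first exon, and the AGAC of this pair is within them; in the ID1 window the last 6 bases are exonic and hold no motif. The BAMBI stretch held GGCGCC 2 times and AGAC 2 times. A match describes the letters only, and sequence beyond these windows was not searched, so a motif missing here may lie further away.

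BMP4 had the highest level of the 10 genes, with a mean of 127 FPKM over the 12 libraries (102 to 158 FPKM). BAMBI followed at 67.2 FPKM, ID1 at 36.6, ID2 at 11, SMAD5 at 8.28, ID3 at 2.97, SMAD1 at 1.97 and ID4 at 1.15 FPKM. SMAD6 (0.768 FPKM) and SMAD9 (0.272 FPKM) were lowest, and they did not reach the mean of 1 FPKM required for testing, so 8 of the 10 genes were tested among 12341. The ranges over 12 libraries overlapped between BAMBI and ID1, between ID3 and SMAD1, between SMAD1 and ID4 and between ID4 and SMAD6, and did not overlap between the other neighbours in this order. Exons of ID2 and SMAD5 overlap antisense genes listed at 0.19 and 0.0123 FPKM, and whether reads were counted by strand was not stated. SMAD9 rested on 17 to 34 reads a library, ID4 on 29 to 61, ID3 on 60 to 145 and SMAD6 on 71 to 147.

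**Figure D1:**
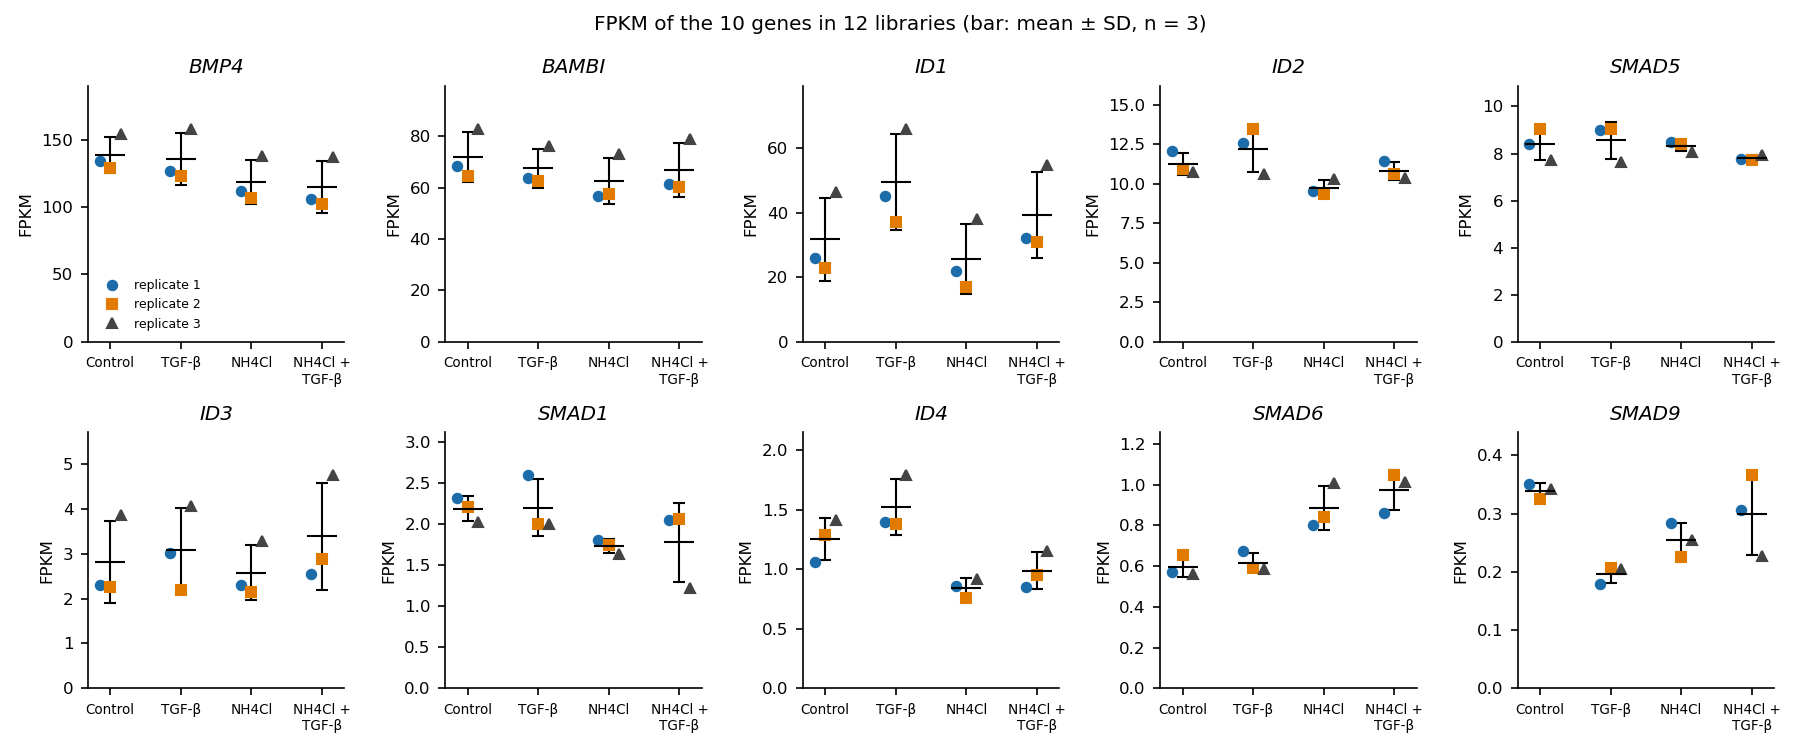
FPKM (vertical axes, each from 0) of the 10 genes in 4 groups, with a point for each of 3 replicates and a bar for the mean ± SD. Replicate 3 is highest for ID1 in each group (46.6, 66.2, 38.0 and 54.9 FPKM), and the NH4Cl groups of SMAD6 lie above the groups without NH4Cl.

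With TGF-β for 1 h, ID1 was higher in 6 of 6 same-numbered pairs, by 1.42-fold to 1.81-fold. The other ID genes were each higher in 5 of 6 pairs but by less on average, with ID3 matching ID1 in replicate 3 of NH4Cl-treated cells (1.45-fold against 1.44-fold), and none of them passed the test. SMAD1, SMAD5, BAMBI and BMP4 were higher in 3, 2, 3 and 1 of 6 pairs. Among all genes tested, 2.24% were higher in 6 of 6 pairs and 12.6% in at least 5 of 6.

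ID1 (ENSG00000125968, chr20:31605283-31606515, + strand), the founding ID gene and a textbook BMP target, stood at 26.1, 22.9 and 46.6 FPKM in control replicates 1 to 3 and at 45.4, 37.1 and 66.2 FPKM after TGF-β. In NH4Cl-treated cells it stood at 21.9, 17.1 and 38.0 FPKM without TGF-β and at 32.2, 31.0 and 54.9 FPKM with it. Each TGF-β library lay above its same-numbered partner, while the groups overlapped because replicate 3 was high in all of them. The ratios with TGF-β were 1.74, 1.62 and 1.42 without NH4Cl and 1.47, 1.81 and 1.44 with it. In FPKM the gain was 19.3, 14.1 and 19.5 without NH4Cl and 10.3, 13.9 and 16.9 with it. The group means were 31.9 ± 12.9 FPKM in untreated cells, 49.5 ± 15 after TGF-β alone, 25.7 ± 11 after NH4Cl alone and 39.4 ± 13.5 after the combination (SD, n = 3).

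ID2 (ENSG00000115738, chr2:8678845-8684453, + strand), which also restrains bHLH factors, stood at 12.1, 11 and 10.8 FPKM in control cells and at 12.6, 13.5 and 10.6 FPKM after TGF-β. With NH4Cl it stood at 9.55, 9.35 and 10.3 FPKM, and with NH4Cl plus TGF-β at 11.5, 10.6 and 10.4 FPKM. Replicates 1 and 2 were higher with TGF-β and replicate 3 was level, and the groups were separate only in NH4Cl-treated cells, where 2.56% of all genes had TGF-β libraries that lay wholly higher. ID3 (ENSG00000117318, chr1:23557918-23559794, - strand), often co-expressed with ID1, stood at 2.30, 2.27 and 3.87 FPKM in control cells and at 3.02, 2.20 and 4.06 FPKM after TGF-β. Its values were 2.31, 2.15 and 3.27 FPKM with NH4Cl and 2.54, 2.88 and 4.75 FPKM with NH4Cl plus TGF-β. The groups of ID3 overlapped, and replicate 2 without NH4Cl was the pair that was lower with TGF-β. ID4 (ENSG00000172201, chr6:19837386-19840684, + strand) stood at 1.06, 1.29 and 1.41 FPKM in control cells and at 1.40, 1.38 and 1.79 FPKM after TGF-β. Under NH4Cl it was at 0.857, 0.757 and 0.915 FPKM, and with NH4Cl plus TGF-β at 0.853, 0.949 and 1.16 FPKM. The TGF-β groups of ID4 overlapped their partners, and each NH4Cl library of ID4 lay below its same-numbered partner without NH4Cl.

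SMAD1 (ENSG00000170365, chr4:145481194-145558079, + strand), a BMP signal transducer, stood at 2.32, 2.21 and 2.03 FPKM in control cells and at 2.59, 2.00 and 2.00 FPKM after TGF-β. After NH4Cl it was at 1.81, 1.75 and 1.63 FPKM, and with NH4Cl plus TGF-β at 2.04, 2.06 and 1.22 FPKM. The TGF-β groups overlapped, with replicate 3 of the combined treatment the lowest library. SMAD5 (ENSG00000113658, chr5:136132845-136188747, + strand), its close relative, stood at 8.41, 9.05 and 7.73 FPKM in control cells and at 8.99, 9.06 and 7.64 FPKM after TGF-β. Its values were 8.49, 8.42 and 8.08 FPKM with NH4Cl and 7.78, 7.74 and 7.95 FPKM with NH4Cl plus TGF-β. The groups of SMAD5 overlapped without NH4Cl, and with NH4Cl all TGF-β libraries lay lower, as did 2.05% of all genes. SMAD9 (ENSG00000120693, chr13:36844831-36920765, - strand), the scarcest of these transducers, stood at 0.351, 0.326 and 0.342 FPKM in control cells and at 0.179, 0.207 and 0.204 FPKM after TGF-β. NH4Cl-treated cells had 0.283, 0.225 and 0.254 FPKM, and cells with NH4Cl plus TGF-β had 0.306, 0.366 and 0.226 FPKM. The control libraries of SMAD9 lay wholly above the TGF-β libraries (1.73% of the genes tested lay wholly lower with TGF-β, and 1.83% wholly higher, among them 0 of the members), while in NH4Cl-treated cells the groups overlapped. The control reads of SMAD9 summed to 95 (95% exact Poisson interval 76.9 to 116) and the TGF-β reads to 54 (40.6 to 70.5), and these intervals cover counting error only.

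SMAD6 (ENSG00000137834, chr15:66702228-66782848, + strand), which competes with receptor-activated SMADs, stood at 0.572, 0.653 and 0.560 FPKM in control cells and at 0.672, 0.592 and 0.586 FPKM after TGF-β. In NH4Cl-treated cells its values were 0.802, 0.843 and 1.01 FPKM, and with NH4Cl plus TGF-β 0.861, 1.05 and 1.01 FPKM. SMAD6 was higher with TGF-β in 5 of 6 pairs, the groups overlapped, and the high libraries were those with NH4Cl. BAMBI (ENSG00000095739, chr10:28677342-28682939, + strand), a receptor-like protein without a kinase part that blocks BMP and TGF-β receptors, stood at 68.3, 64.4 and 83.0 FPKM in control cells and at 63.7, 62.7 and 76.1 FPKM after TGF-β. Its values were 56.9, 57.7 and 73.1 FPKM with NH4Cl and 61.3, 60.1 and 79.1 FPKM with NH4Cl plus TGF-β. The groups of BAMBI overlapped, but within replicate numbers TGF-β libraries were the lower in 3 of 3 pairs without NH4Cl and the higher in 3 of 3 with it. BMP4 (ENSG00000125378, chr14:53949736-53958761, - strand), a secreted BMP ligand, stood at 134, 129 and 154 FPKM in control cells and at 126, 123 and 158 FPKM after TGF-β. With NH4Cl it stood at 112, 107 and 138 FPKM, and with NH4Cl plus TGF-β at 106, 102 and 137 FPKM. BMP4 overlapped between the TGF-β groups, with replicate 3 the highest library in each group.

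**Figure D2:**
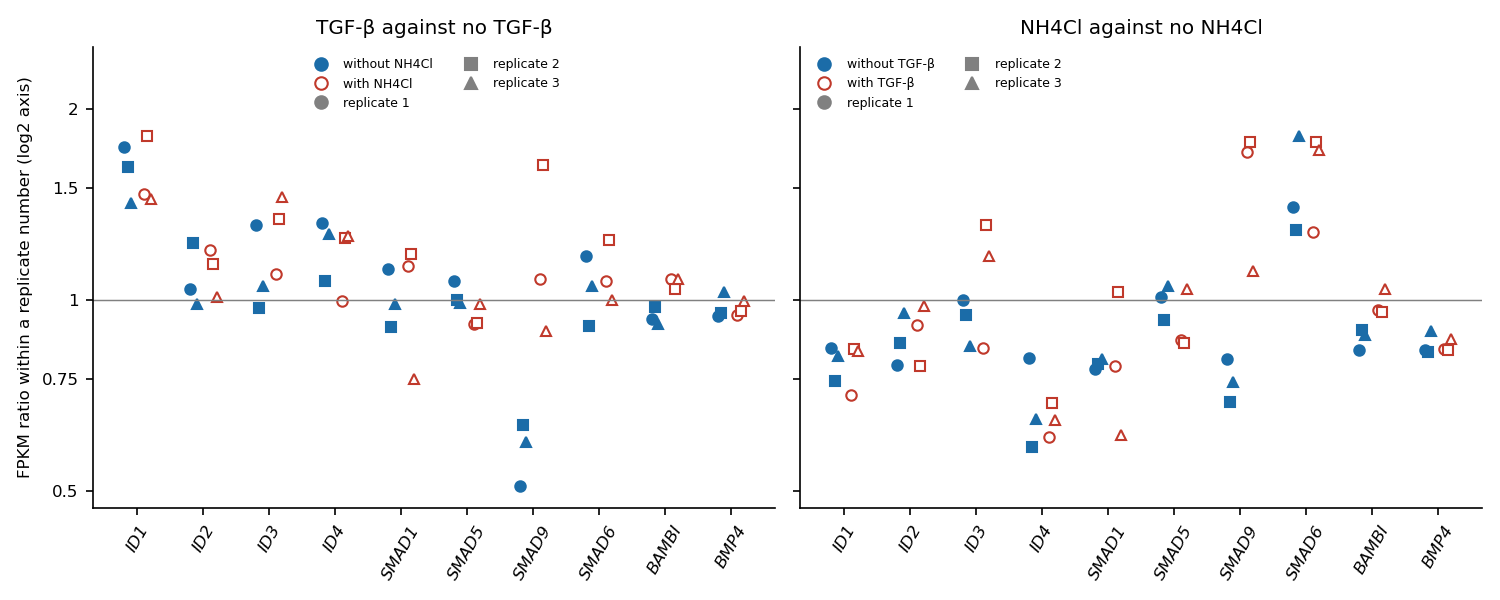
Ratio of FPKM within a replicate number (log2 axis, 1 means equal) for TGF-β against no TGF-β and for NH4Cl against no NH4Cl, with filled points for pairs without the other treatment, open points for pairs with it and a shape for each replicate. ID1 lies between 1.42 and 1.81 with TGF-β, and ID4 lies between 0.586 and 0.81 with NH4Cl.

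The test was limma on log2(FPKM + 1), with p-values adjusted by the Benjamini-Hochberg method over 12341 genes and a call at an adjusted p under 0.05. With no block, limma called 0 genes (0.00%) for TGF-β against control, where 103 genes had an unadjusted p under 0.05. It called 0 genes (0.00%) for TGF-β in NH4Cl-treated cells (165 under 0.05) and 0 genes (0.00%) for the mean of the 2 TGF-β effects (134 under 0.05). With the replicate block it called 1 gene (0.00810%) in each of these 3 comparisons, and that gene was ID1, from which nothing is read. Of the 7 other tested members limma called 0 in each of these comparisons, without or with the block, and for the mean effect 3 of 7 had an unadjusted p under 0.05 with the block against 5.57% of all genes. These were ID3, with a log2 difference of 0.19 (SE 0.0602, higher in 5 of 6 pairs, limma adjusted p 0.804), ID4, with 0.13 (SE 0.0524, 5 of 6 pairs, limma adjusted p 0.84), and ID2, with 0.12 (SE 0.052, 5 of 6 pairs, limma adjusted p 0.866). The members were chosen with earlier results of these data known, so no support is drawn from the 3 of 7. The mean log2 difference of ID1 was 0.64, given with no test. The 95% intervals with the block were -0.14 to 0.15 for SMAD1, -0.12 to 0.06 for SMAD5, -0.05 to 0.06 for BAMBI and -0.1 to 0.01 for BMP4. A p that misses the threshold does not show that values did not differ. Without replicate 3, limma called 0 members and 0 genes (0.00%) for the mean effect, with 710 genes at an unadjusted p under 0.05.

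With NH4Cl (24 h alone, or 23 h before TGF-β), ID4 fell to between 0.586-fold and 0.81-fold of its level within replicate numbers, lower in 6 of 6 pairs. ID1, ID2 and BMP4 were also lower in 6 of 6 pairs, SMAD1 and BAMBI in 5 of 6, and SMAD6 was higher in 6 of 6. ID3, SMAD5 and SMAD9 were lower in 3 of 6 pairs each. Among all genes tested, 15.5% were lower in 6 of 6 pairs and 15.7% were higher in 6 of 6. The median log2 difference over the tested members was -0.2 against -0.001 over all genes.

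KRT18, KRT8 and KRT19, with means of 876, 860 and 556 FPKM, made up most of the summed FPKM of the colon epithelial markers. This sum, given above for each library, was lower with NH4Cl in 6 of 6 same-numbered pairs, and the markers were not compared singly. The summed FPKM of the fibroblast markers was higher with NH4Cl, at 7.87, 8.34 and 10.4 in control replicates 1 to 3 and 9.84, 9.85 and 10.8 with NH4Cl, and at 8.66, 8.38 and 9.58 with TGF-β and 9.98, 9.35 and 10.9 with both. LUM, a matrix proteoglycan, made up most of it. The summed FPKM of the endothelial markers, nearly all of it VWF, was 1.74, 1.95 and 4.17 in control cells and 2.71, 3 and 5.85 with NH4Cl, and 1.93, 1.58 and 4.38 with TGF-β and 2.67, 2.82 and 6.84 with both. Apart from COL1A1, the other markers of both lists stayed at or below 0.24 FPKM on average, and any part of these genes in the NH4Cl differences was not tested.

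ID4 had NH4Cl ratios of 0.81, 0.586 and 0.649 without TGF-β and 0.609, 0.689 and 0.646 with it, and its groups did not overlap in either setting. ID1 had ratios of 0.841, 0.746 and 0.816 without TGF-β and 0.709, 0.837 and 0.83 with it. BMP4 had ratios of 0.833, 0.829 and 0.894 without TGF-β and 0.836, 0.833 and 0.866 with it. The ratios of ID1 and BMP4 varied little between replicates, although the FPKM groups of both overlapped through replicate 3. ID2 had ratios of 0.79, 0.854 and 0.955 without TGF-β and 0.913, 0.787 and 0.977 with it, closest to 1 in replicate 3. SMAD1 had ratios of 0.779, 0.791 and 0.806 without TGF-β and 0.787, 1.03 and 0.613 with it, even in the first setting and scattered in the second. BAMBI had ratios of 0.834, 0.896 and 0.88 without TGF-β and 0.963, 0.958 and 1.04 with it, nearer to 1 when TGF-β was present. SMAD6 had ratios of 1.4, 1.29 and 1.81 without TGF-β and 1.28, 1.77 and 1.72 with it, and its groups did not overlap in either setting. SMAD9 had ratios of 0.807, 0.69 and 0.743 without TGF-β and 1.71, 1.77 and 1.11 with it, separate groups that lay on opposite sides, a split of 3 of 3 one way and 3 of 3 the other seen in 1.30% of all genes tested. Without TGF-β, ID2, ID4, SMAD1 and SMAD9 lay wholly lower with NH4Cl (7.92% of all genes tested did) and SMAD6 wholly higher (9.58%). With TGF-β, ID4 lay wholly lower (7.45%) and SMAD6 and SMAD9 wholly higher (8.90%). SMAD6 and SMAD9 were not among the genes tested, so the shares are no background for these 2.

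For the mean of the 2 NH4Cl effects with no block, limma called 1 of 8 tested members, ID4, against 758 genes of 12341 (6.14%). ID4 fell by 0.32 on the log2 scale (SE 0.0684, lower in 6 of 6 pairs, limma adjusted p 0.0251), or by 0.548 with a pseudocount of 0.1, since the added 1 shrinks differences of scarce genes (limma adjusted p 0.0266). That call was lost without control replicate 2, TGF-β replicate 1, NH4Cl replicate 1, NH4Cl replicate 2, NH4Cl plus TGF-β replicate 1 or NH4Cl plus TGF-β replicate 2, each left out alone, where the limma adjusted p reached 0.0673. With the replicate block limma called 6 of 8 members, all lower, against 3830 genes (31.0%). BMP4 fell by 0.24 (SE 0.0255, lower in 6 of 6 pairs, limma adjusted p 0.000158), ID1 fell by 0.32 (SE 0.0464, 6 of 6 pairs, given with no p) and ID4 fell by 0.32 (SE 0.0524, 6 of 6 pairs, limma adjusted p 0.0017). BAMBI fell by 0.11 (SE 0.0237, lower in 5 of 6 pairs, limma adjusted p 0.00682), ID2 fell by 0.18 (SE 0.052, 6 of 6 pairs, adjusted p 0.0291) and SMAD1 fell by 0.22 (SE 0.0652, 5 of 6 pairs, adjusted p 0.0297). The calls of BMP4, ID4 and BAMBI with the block were kept in 12 of 12 fits that each left out 1 library. The ID2 call was kept in 4 of 12 such fits and the SMAD1 call in 6 of 12. For ID3 (log2 difference 0.01, limma adjusted p 0.948 with the block, lower in 3 of 6 pairs) and SMAD5 (-0.06, limma adjusted p 0.266 with the block, lower in 3 of 6 pairs) no call was made. That a drop in RNA per cell and a drop in the number of expressing cells cannot be told apart holds for all of these values.

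The ID2 call with the block was lost without control replicate 1, control replicate 3, TGF-β replicate 1, TGF-β replicate 2, NH4Cl replicate 1, NH4Cl replicate 2, NH4Cl plus TGF-β replicate 2 or NH4Cl plus TGF-β replicate 3, with a limma adjusted p of up to 0.0774. The SMAD1 call with the block was lost without control replicate 2, control replicate 3, TGF-β replicate 1, TGF-β replicate 3, NH4Cl replicate 1 or NH4Cl replicate 2, with a limma adjusted p of up to 0.0773. Without all of replicate 3 and with no block, limma called 6 of 8 members against 26.6% of all genes, all lower. ID1, 1 of these 6, fell by 0.34 (4 of 4 pairs), given with no p. ID2 fell by 0.24 (limma adjusted p 0.00757, 4 of 4 pairs), ID4 by 0.3 (0.0175, 4 of 4), BAMBI by 0.13 (0.0117, 4 of 4) and BMP4 by 0.26 (0.00109, 4 of 4). SMAD5 fell by 0.12 in that fit (limma adjusted p 0.0378, lower in 3 of 4 pairs), a call not made with replicate 3 included, and SMAD1 at -0.17 was not called (limma adjusted p 0.102, lower in 3 of 4 pairs). That fit rests on replicates 1 and 2 alone, which were close to each other. Leaving out replicate 1 or replicate 2 instead, with no block, gave calls for 0% of all genes.

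Against control cells alone, NH4Cl gave limma calls for 0 of 8 members with no block (47 genes, 0.381%, with 1333 genes at an unadjusted p under 0.05) and for 4 of 8 with the block (1674 genes, 13.6%). Those 4 were BMP4, which fell by 0.23 (limma adjusted p 0.00345, lower in 3 of 3 pairs), BAMBI, which fell by 0.2 (0.00505, 3 of 3), ID4, which fell by 0.29 (0.031, 3 of 3), and ID1. The ID1 difference was -0.31 (lower in 3 of 3 pairs), given with no p because its control values were part of the choice, and its call supports nothing. With single libraries left out, BMP4 and BAMBI were called in 12 of 12 fits and ID4 in 7 of 12. The ID4 call was lost without control replicate 1, 2 or 3 or NH4Cl replicate 2 or 3 (limma adjusted p up to 0.129). In TGF-β-treated cells NH4Cl gave calls for 0 of 8 members with no block (127 genes, 1.03%, with 1642 genes at an unadjusted p under 0.05) and for 3 of 8 with the block (2322 genes, 18.8%). Those 3 were BMP4, which fell by 0.24 (limma adjusted p 0.00214, lower in 3 of 3 pairs), ID4, which fell by 0.34 (0.012, 3 of 3), and ID1. BMP4 and ID4 were each called in 12 of 12 fits that left out 1 library. ID1 was lower by 0.33 (3 of 3 pairs), given with no p because its TGF-β values chose the genes, and its call here supports nothing. BAMBI at -0.02 was not called there (limma adjusted p 0.729 with the block, lower in 2 of 3 pairs).

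SMAD6 and SMAD9, under the mean of 1 FPKM, were tested only in a fit of all 25733 genes. For the mean NH4Cl effect SMAD6 rose by 0.26 on the log2 scale (0.54 with a pseudocount of 0.1; SE 0.0498, higher in 6 of 6 pairs), with a limma adjusted p of 0.0286 with no block (550 genes called, 2.14%) and of 0.0101 with the block (3396 genes, 13.2%). With no block the SMAD6 call was kept in 3 of 12 fits that left out 1 library, those without control replicate 3, TGF-β replicate 3 or NH4Cl plus TGF-β replicate 1, and the limma adjusted p reached 0.0833 in the others, while with the block it was kept in 12 of 12. Against control with the block, where 4.36% of all 25733 genes were called, the adjusted p of SMAD6 was 0.102 by limma (higher in 3 of 3 pairs), and in TGF-β-treated cells, where 6.12% were called, it was 0.0498 (3 of 3), a call kept in 1 of 12 fits that left out 1 library, the fit without NH4Cl replicate 3 (limma adjusted p up to 0.17 in the others). With no block SMAD6 was called in neither of these comparisons, where limma called 0.0894% and 0.198% of all genes. SMAD9 had a mean NH4Cl difference of 0.01 (limma adjusted p 0.918 with no block, higher in 3 of 6 pairs), in which the opposite signs without and with TGF-β cancel. For TGF-β against control SMAD9 differed by -0.16 (lower in 3 of 3 pairs, limma adjusted p 1, among 674 genes with an unadjusted p under 0.05 and 0 called, 0.00%), and the block gave 0 calls among members other than ID1 for the mean TGF-β effect by limma (1 gene, ID1 itself, 0.00389%, with 1325 genes at an unadjusted p under 0.05). In the fit of all genes with no block the adjusted p of ID4 for the mean NH4Cl effect was 0.0514 by limma, with the same log2 difference of -0.32 and 6 of 6 pairs lower.

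**Figure D3:**
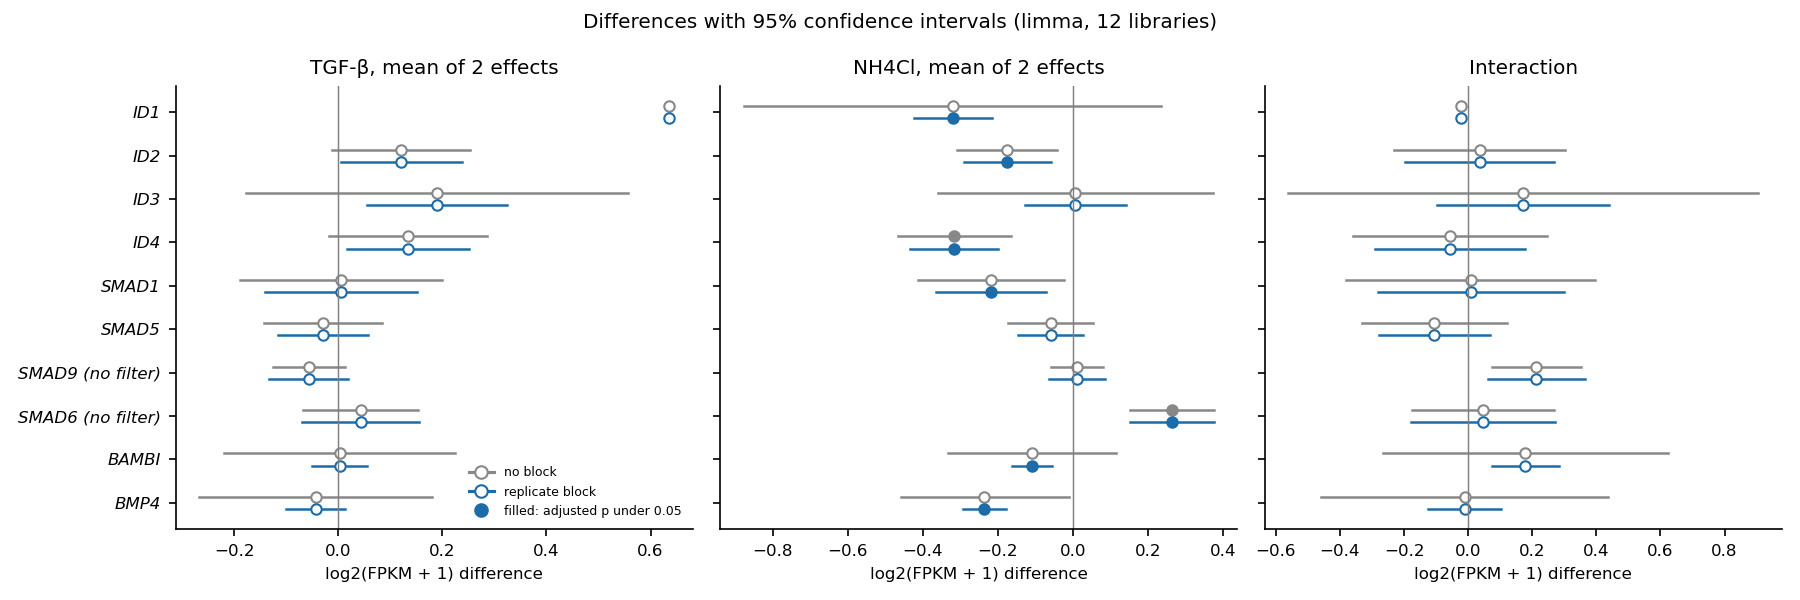
Difference on the log2(FPKM + 1) scale with its 95% interval from limma (horizontal axes) for the mean TGF-β effect, the mean NH4Cl effect and the interaction, grey without and blue with the replicate block, filled where the adjusted p was under 0.05, and ID1 shown without interval for TGF-β and the interaction. With the block 6 tested members are filled for NH4Cl, all below 0, SMAD6 from the fit of all genes is filled above 0, and none is filled for TGF-β or the interaction. The filled ID1 point supports nothing, since its libraries chose the genes.

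Whether NH4Cl altered the TGF-β effect was asked by the interaction, the TGF-β difference with NH4Cl minus that without it. Limma called 0 genes (0.00%) without the block, where 115 genes had an unadjusted p under 0.05, and 0 genes (0.00%) with it, where 537 genes did. ID1 had an interaction of -0.02 on the log2 scale, given with no test because it is built from the TGF-β values that chose the genes. The TGF-β ratio of ID1 was lower with NH4Cl in replicate 1 and higher in replicates 2 and 3. BAMBI had an interaction of 0.18 (SE 0.0475 with the block, limma adjusted p 0.992), with TGF-β ratios of 0.933, 0.974 and 0.917 without NH4Cl and 1.08, 1.04 and 1.08 with it. Opposite TGF-β pairs of this kind, 3 of 3 one way and 3 of 3 the other, were seen in 2.84% of all genes tested. SMAD9 had an interaction of 0.21 in the fit of all genes (SE 0.0625, limma adjusted p 1), where 0 genes were called (0.00%) and 608 had an unadjusted p under 0.05.

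The wider pathway was described through 84 genes in 8 lists, of which 70 were in the table and 44 were tested. For TGF-β and for the interaction limma called 0 of the 44 without or with the block. SMAD7, which encodes the inhibitory SMAD of the TGF-β branch, stood at 6.21, 6.26 and 7.88 FPKM in control cells and at 7.49, 7.19 and 10.3 FPKM after TGF-β. Under NH4Cl it was at 6.07, 5.55 and 7.64 FPKM, and with NH4Cl plus TGF-β at 6.65, 6.47 and 8.87 FPKM. SMAD7 was higher with TGF-β in 6 of 6 pairs, by a mean log2 difference of 0.21 (SE 0.032 with the block, limma adjusted p 0.417), and its groups overlapped. KLF10, an early TGF-β target, was higher in 6 of 6 pairs by 0.16 (SE 0.0459 with the block, limma adjusted p 0.76), and JUNB, of the same list, in 6 of 6 pairs by 0.28 (SE 0.0653 with the block, limma adjusted p 0.658). The median TGF-β difference of the 9 early SMAD3 targets was 0.09 and that of the 5 tested BMP ligands 0.03 (log2), against 0 over all genes. Of those 9 targets 7 had a mean difference above 0 and 2 below it, among the latter CCN1 at -0.009 (higher in 4 of 6 pairs).

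For the mean NH4Cl effect limma called 2 of the 44 pathway genes with no block (6.14% of all genes were called) and 20 with it, 9 higher and 11 lower (31.0%). The 2 called with no block were BMP6, a BMP ligand, which rose by 0.29 (limma adjusted p 0.0148, higher in 6 of 6 pairs), and KLF10, which fell by 0.23 (limma adjusted p 0.0276, lower in 5 of 6 pairs). All 3 tested bHLH partners of the ID proteins were lower with the block. ASCL2, an intestinal stem cell factor, stood at 55.8, 54.3 and 42.1 FPKM in control cells and at 60, 58.2 and 45.2 FPKM after TGF-β. After NH4Cl it was at 45.2, 42.4 and 31.0 FPKM, and with NH4Cl plus TGF-β at 46.0, 44.6 and 32.0 FPKM. Each NH4Cl library of ASCL2 lay below its same-numbered partner, and replicate 3 was the lowest of each group. ASCL2 fell by 0.38 (limma adjusted p 1.18e-05 with the block, lower in 6 of 6 pairs), TCF12, an E protein, fell by 0.12 (0.0178, 6 of 6) and TCF3, the other E protein tested, fell by 0.12 (0.0154, 6 of 6).

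Among the 5 tested BMP ligands the block gave 2 higher and 1 lower. The share to set beside each list count here is that of all genes called with the block, 31.0%. BMP6 rose by 0.29 (limma adjusted p 0.00077, higher in 6 of 6 pairs), BMP8B rose by 0.16 (0.0495, 5 of 6) and BMP5 fell by 0.27 (0.00129, lower in 6 of 6), while BMP7, at 29.1 to 37.8 FPKM in control cells the most abundant of them, was not called. The extracellular antagonists FSTL3 (0.27, limma adjusted p 0.0016, 6 of 6 pairs) and NBL1 (0.15, 0.00231, 6 of 6) rose with the block, 2 of 4 tested. Of the 8 intracellular modulators 2 rose, TOB1, an antiproliferative adaptor (0.3, limma adjusted p 0.000235, 6 of 6 pairs), and PPM1A, a SMAD phosphatase (0.11, 0.0379, 6 of 6). The other 2 called were lower: SMAD7 fell by 0.12 (limma adjusted p 0.0205, 6 of 6 pairs) and SMURF2, a ubiquitin ligase for SMADs and receptors, fell by 0.11 (0.0441, 6 of 6). SKI, at 18.5 to 22.0 FPKM in control cells the most abundant of these modulators, was not called (-0.01, limma adjusted p 0.915 with the block, lower in 3 of 6 pairs). RUNX2, a BMP target transcription factor, rose by 0.27 (limma adjusted p 0.00549 with the block, 6 of 6 pairs), 1 of 4 tested in its list, whose most abundant gene MSX2 (28.3 to 34.9 FPKM in control cells) was not called (-0.06, limma adjusted p 0.165, lower in 5 of 6 pairs). Limma called 0 of the 7 tested BMP receptors and co-receptors without or with the block, against 6.14% and 31.0% of all genes. The most abundant of them in control cells was BMPR1A at 3.45 to 4.23 FPKM. On the TGF-β side TGFBR2 fell by 0.23 (limma adjusted p 0.00034 with the block, 6 of 6 pairs) and the activin receptor gene ACVR1B fell by 0.08 (0.0356, 6 of 6), 2 of 6 tested, while SMAD3, the most abundant of them at 13.7 to 18.0 FPKM in control cells, was not called (-0.05, limma adjusted p 0.207, lower in 6 of 6 pairs). Of the 9 early SMAD3 targets 2 rose, among them JUNB (0.21, limma adjusted p 0.0345 with the block, 5 of 6 pairs), and 4 fell, among them KLF10 (limma adjusted p 0.00412) and CCN1 (-0.29, 0.0215, 5 of 6 pairs lower).

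With single libraries left out, 10 of the 18 pathway genes named here with a block call were called in 12 of 12 fits, among them ASCL2, TCF3, TGFBR2, BMP6, BMP5 and TOB1. The others lost their calls in some fits. SMAD7 was not called without control replicate 2 or NH4Cl replicate 2 (limma adjusted p up to 0.0629), and TCF12 without control replicate 2, TGF-β replicate 1 or NH4Cl plus TGF-β replicate 2 (up to 0.0547). CCN1 was not called without control replicate 3, TGF-β replicate 2, NH4Cl replicate 2 or 3 or NH4Cl plus TGF-β replicate 1 (limma adjusted p up to 0.0596), and JUNB was called in 4 of 12 fits, those without a library of replicate 1 (up to 0.091 in the others). The remaining 4 were called in 2 of 12 fits each. These were BMP8B, called without NH4Cl replicate 3 or NH4Cl plus TGF-β replicate 1 (limma adjusted p up to 0.119 in the others), and PPM1A, called without control replicate 2 or NH4Cl plus TGF-β replicate 2 (up to 0.091). SMURF2 was called without TGF-β replicate 3 or NH4Cl plus TGF-β replicate 3 (limma adjusted p up to 0.117 in the others), and ACVR1B without control replicate 3 or NH4Cl replicate 3 (up to 0.0976). With no block BMP6 was called in 12 of 12 fits, and KLF10 in 4 of 12, those that left out a library of replicate 3 (limma adjusted p up to 0.078 in the others).

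**Figure D4:**
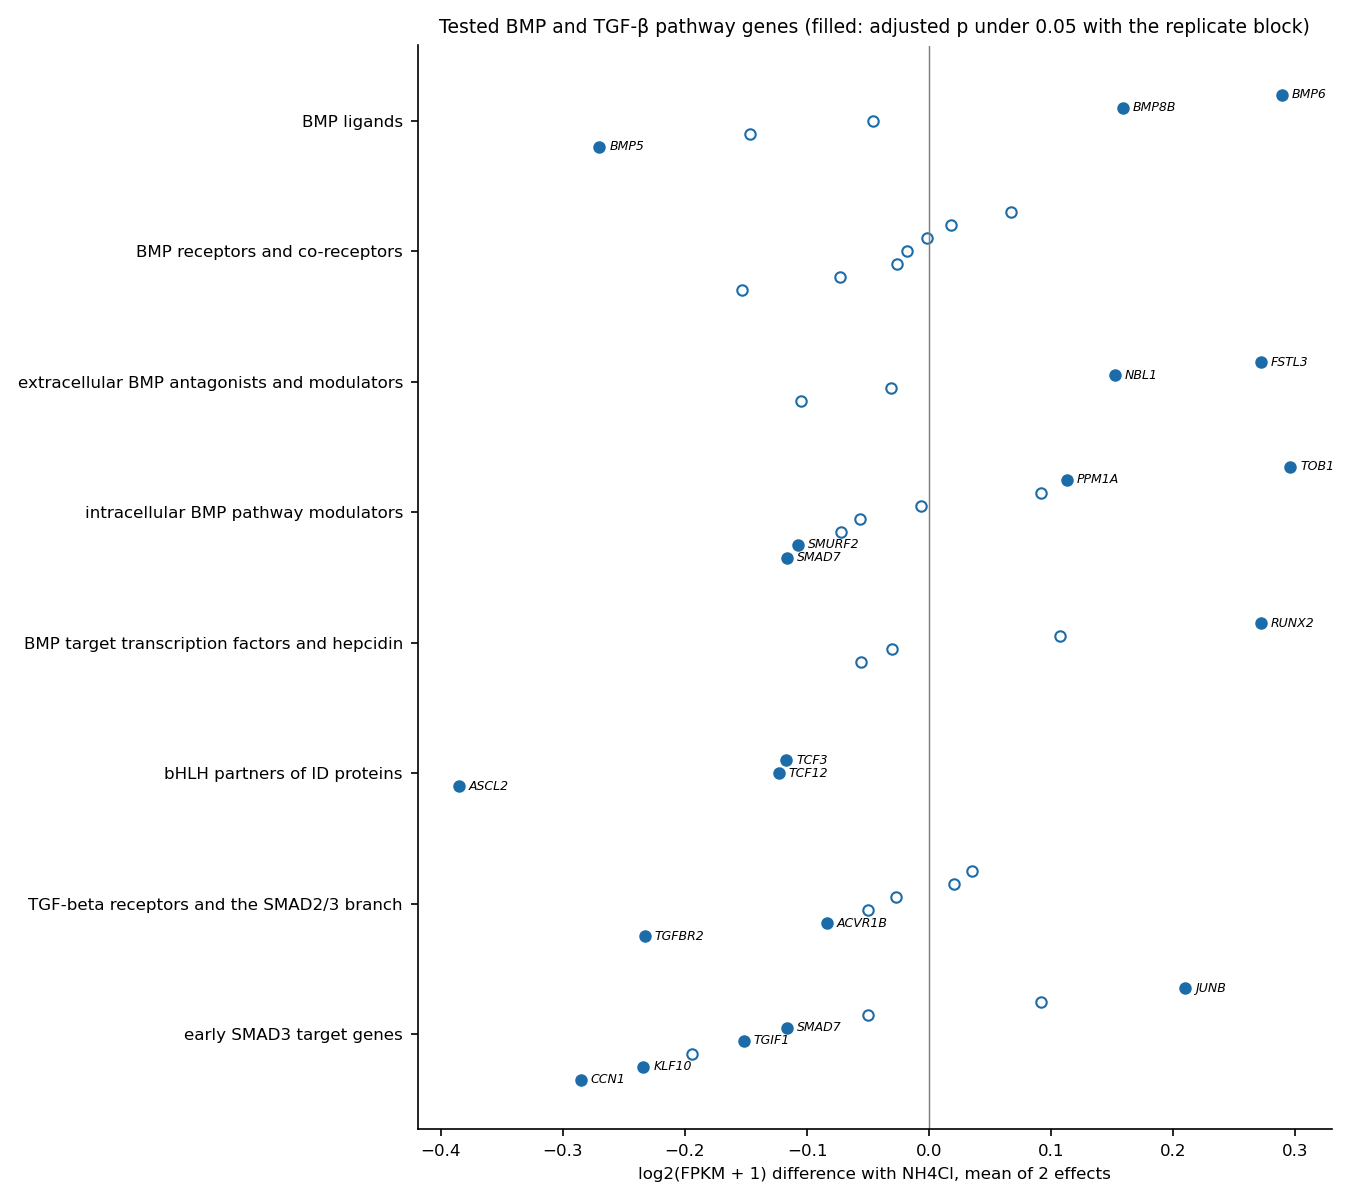
Mean NH4Cl difference on the log2(FPKM + 1) scale (horizontal axis) of 43 tested pathway genes by list, filled and named where the adjusted p was under 0.05 with the replicate block. The bHLH partners are all below 0, with ASCL2 at -0.38, and no BMP receptor is filled.

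SMAD4, the shared partner of all these SMADs, was listed at a mean of 0.203 FPKM in control cells and was not tested. The annotation places a gene called AC091551.1 on the same strand with exons shared with SMAD4, and how reads in both were counted was not stated, so this level cannot be read as a low level of SMAD4.

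The genes most like ID1 were looked up over the 12 libraries after the mean of each replicate number was subtracted, by Pearson correlation among 12340 other tested genes, as a description. They were PIP5K1C (r 0.956), SMAD7 (0.925), ZNF668 (0.916), GSDMD (0.911) and BX470102.2 (0.893). The most opposite were GCC1 (r -0.945), NFX1 (-0.929) and AMZ2P1 (-0.87). PIP5K1C, a lipid kinase gene, stood at 5.05, 5.08 and 4.96 FPKM in control cells and at 5.56, 5.54 and 5.28 FPKM after TGF-β. NH4Cl-treated cells had 4.87, 4.96 and 4.69 FPKM, and with NH4Cl plus TGF-β at 5.11, 5.22 and 5.12 FPKM. Its span was small beside that of ID1, with the TGF-β libraries highest and the NH4Cl libraries lowest. Of the members, ID2 had r 0.745 (place 84), ID4 0.727 (place 106) and ID3 0.655 (place 247), ahead of SMAD1 at 0.412, BAMBI at 0.334, BMP4 at 0.255 and SMAD5 at 0.051.

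**Figure D5:**
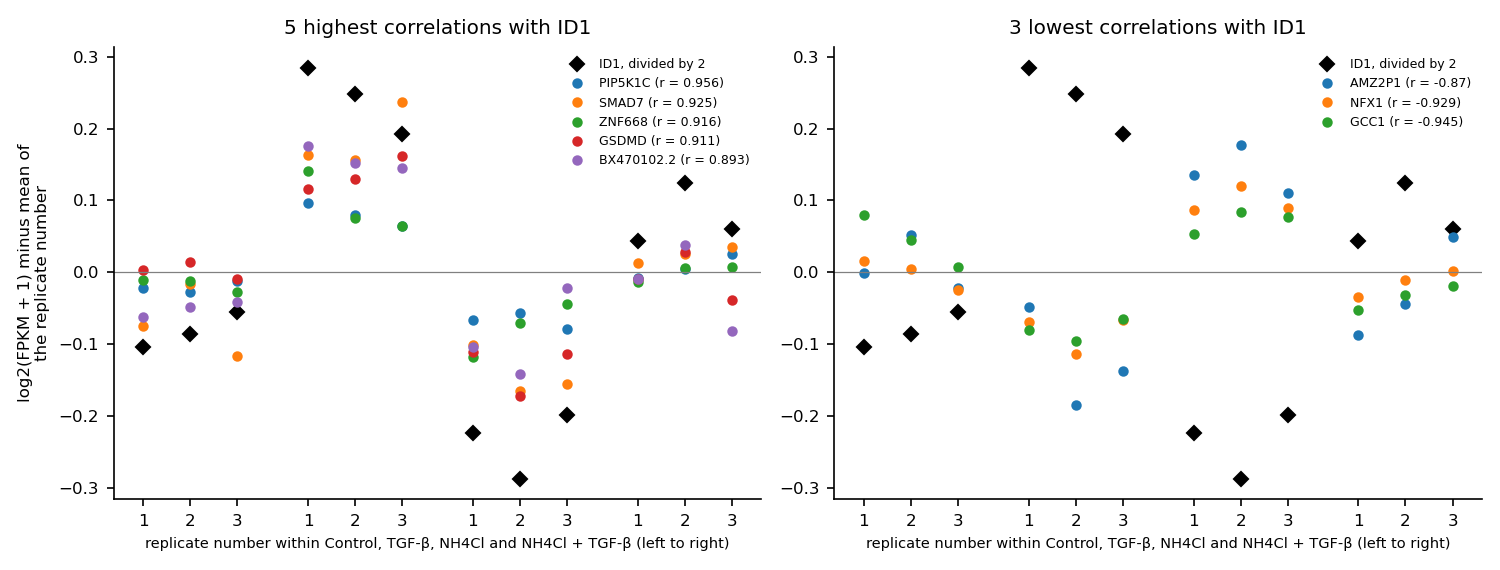
Deviation of log2(FPKM + 1) from the mean of its replicate number (vertical axes) in 12 libraries ordered by group, for ID1 (black, divided by 2) with the 5 genes of highest and the 3 of lowest correlation with it. The 5 lie highest in the TGF-β libraries (r 0.893 to 0.956), and the 3 lie lowest there or with NH4Cl plus TGF-β (r -0.945 to -0.87).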

How the data were processed

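RNA-seq values came from 1 table of 25733 genes by 12 HCT116 libraries, which the authors deposited in FPKM. The submitters' processing notes name Trimmomatic 0.36, STAR 2.5.2b, featureCounts from Subread 1.5.2 and DESeq2 on GRCh38, while the paper's methods name HTSeq for counting. Read counts were recovered from the deposited FPKM values and exon lengths in GENCODE 29, and 308796 of 308796 values came within 0.05 of a whole number of reads, so depth and counting intervals rest on them. Groups and replicate numbers came from the labels, and 12 of 12 columns were used.

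Levels were compared in FPKM, and differences on log2(FPKM + 1) for 12341 genes with a mean of at least 1 FPKM. All 4 group means were fitted together with limma 3.58.1 in R 4.3.3 (moderated, intensity trend, two-sided), with Benjamini-Hochberg adjustment over all genes tested and a threshold of 0.05. The contrasts were TGF-β without and with NH4Cl, NH4Cl without and with TGF-β, the mean of each pair, and their difference (the interaction). The replicate number as a block was the other fit. Same-numbered libraries of 2 groups were correlated across genes in 18 of 18 pairings after removal of group means, with r from 0.349 to 0.774, genes not being independent replicates. Code was tested on simulated data. Python 3.11.15, numpy 2.4.6, pandas 2.3.3, scipy 1.17.1 and matplotlib 3.10.9 did the rest.

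Every member is named. From the 8 pathway lists, genes are named if called for a mean effect or the interaction in the fit without or with the block, at most the 4 of largest absolute difference a list, plus the most abundant gene of each list in control cells. A gene selected by this rule was fitted and counted but is not reported here. Genes most like ID1 are the 5 highest and 3 lowest by Pearson correlation. The members and lists were chosen with earlier results of these data known. The 14 pathway genes and the immune markers PTPRC and CD68 not found in the table under current or older symbols were not analysed here. Alternatives were another pseudocount (0.1), no filter, a mean of at least 5 FPKM, scaling to equal sums, centring on medians, no intensity trend, only the 6 libraries compared, and leaving out a library or a replicate number.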

Additional observations from a re-analysis of the deposited data

Results flagged for a closer look

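BAMBI drew attention because its TGF-β pairs pointed opposite ways in the groups without and with NH4Cl. TGF-β libraries of BAMBI were at 0.933, 0.974 and 0.917 of their partners without NH4Cl and at 1.08, 1.04 and 1.08 with it, so that 3 of 3 pairs were lower in the first and 3 of 3 higher in the second. The difference between the log2 effects was 0.18 (SE 0.0475 with the replicate block, limma adjusted p 0.992). Of the 12341 genes tested, 350 (2.84%) had TGF-β pairs split in this way.

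SMAD9 drew attention for the same reason in its NH4Cl pairs. NH4Cl libraries of SMAD9 were at 0.807, 0.69 and 0.743 of their partners without TGF-β and at 1.71, 1.77 and 1.11 with it, all lower in the first and all higher in the second. The difference between the log2 effects was 0.21 (limma adjusted p 1 in the fit of all genes), on 17 to 34 reads a library. Of the genes tested, which do not include SMAD9, 160 (1.30%) had NH4Cl pairs split in this way. No cause was tested for either gene.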

How the results depend on the processing

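With ID1 left out as untested, the counts of members and of pathway genes called for TGF-β without NH4Cl, for TGF-β with NH4Cl, for their mean and for the interaction were 0 by limma in every setting. With no block 103, 165, 134 and 115 of all genes had an unadjusted p under 0.05, and with the replicate block 422, 879, 687 and 537 did. The NH4Cl counts moved. With the replicate block, members called went from 0 to 4 against control, from 0 to 3 in TGF-β-treated cells and from 1 to 6 for the mean effect, and pathway genes from 0 to 7, from 0 to 13 and from 2 to 20, while the share of all genes called went from 0.381% to 13.6%, from 1.03% to 18.8% and from 6.14% to 31.0%. With no filter and the replicate block together, an alternative chosen after seeing the data, members called were 3, 4 and 5 and pathway genes 6, 7 and 15, with 4.36%, 6.12% and 13.2% of all genes. With a mean of at least 5 FPKM, members called for the mean NH4Cl effect were 0 (ID4 is then not tested) and pathway genes 1, with 6.87% of all 7278 genes.

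These ranges cover fits that left out a library, without or with the replicate block, and fits that left out a replicate number with no block. Members called ranged from 0 to 4 against control, from 0 to 4 in TGF-β-treated cells and from 0 to 6 for the mean NH4Cl effect. Pathway genes called ranged from 0 to 8, from 0 to 12 and from 0 to 17, and the share of all genes called from 0% to 14.5%, to 19.2% and to 28.8%, being 0% without replicate 1 and without replicate 2. Against control with no block it was also 0% without control replicate 1, NH4Cl replicate 1 or NH4Cl replicate 2, each left out alone. In TGF-β-treated cells with no block it was 0.0243% without TGF-β replicate 2. ID4 at the mean NH4Cl effect was not called with no filter (log2 difference -0.316, limma adjusted p 0.0514), without replicate 1 (-0.343, 0.366) or without replicate 2 (-0.306, 0.453), all with no block. BMP6 and KLF10 lost their calls with no block when libraries were scaled to equal sums (log2 differences 0.34 and -0.241, limma adjusted p 0.0815 and 0.0776), without replicate 1 (0.26 and -0.18, limma adjusted p 0.442 and 0.508) and without replicate 2 (0.327 and -0.22, limma adjusted p 0.256 and 0.506).

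Signs turned for log2 differences near 0 that were not called in any setting. Over the fits without replicate 1, 2 or 3 with no block, the interaction ranged from -0.11 to 0.088 for ID1, from -0.041 to 0.11 for ID2, from -0.132 to 0.028 for ID4, from -0.114 to 0.128 for SMAD1 and from -0.02 to 0.006 for BMP4. The mean TGF-β difference ranged from -0.049 to 0.072 for SMAD1 (-0.007 without replicate 2) and from -0.001 to 0.007 for BAMBI, and the mean NH4Cl difference of ID3 from -0.046 to 0.055. With libraries centred on medians the mean NH4Cl difference of ID3 was -0.005. With a pseudocount of 0.1 differences of scarce genes grew, the mean NH4Cl effect to 0.54 for SMAD6 and -0.548 for ID4, the mean TGF-β effect to 0.085 for SMAD6 and -0.203 for SMAD9, and the interaction to 0.73 for SMAD9. Scaling libraries to equal sums moved 4 of the 30 member differences. Where a reason is not given, the cause was not tested. Depth limits SMAD9, ID4, ID3 and SMAD6 most, and 3 libraries a group limit every call.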
